A study of Mus musculus with 2 samples.

Results

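The 8 genes described here encode chemokines that draw neutrophils, their receptor and a few partners in the interleukin 1 and granulocyte pathways: Cxcl1, Cxcl2, Cxcl3, Cxcl5, Cxcr2, Csf3r, Il1b and Il1r2. They were taken by symbol from the gene lists of both libraries, which each hold 22620 genes, and all 8 were found. The question was which cells of a mammary tumour and of the lymph nodes of the same mice held each transcript. Single-cell libraries were made from C57BL/6J mice that carried tumours of EO771-HEVM3 in the mammary fat pad. The parental EO771 line comes from a mouse breast cancer, and EO771-HEVM3 is its derivative after 3 rounds of selection in mice for cells that left lymph nodes through high endothelial vessels. One library held the primary tumours and the other the paired lymph nodes, each pooled from 6 mice, with no tumour-free animal and no tumour of the parental line. Per the study's methods the mice were 5 to 6 weeks old when obtained, and the time of collection is not given for these libraries in the sources used here. Tumours were digested for 2 h with collagenases I and III and hyaluronidase, and lymph nodes for 1 h with collagenase P, dispase II and DNase. The study's methods also mention endothelial cells sorted from metastatic nodes and processed alongside, and whether these entered the lymph node library is not given. Tissue, digestion and library therefore cannot be told apart, and shares by class in the node depend on what was loaded.

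CXCL1, CXCL2, CXCL3 and CXCL5 are small secreted proteins with a glutamate-leucine-arginine motif before their paired cysteines, and they attract neutrophils through the receptor CXCR2. Their genes lie close together in the mouse genome, and in macrophages, endothelial cells and fibroblasts they are switched on quickly by interleukin 1 and other signals that act through the transcription factor NF-kappa B. CSF3R, the receptor for granulocyte colony stimulating factor, supports the making and survival of neutrophils. IL1B is a secreted inflammatory cytokine of myeloid cells, and IL1R2 is a decoy receptor that binds it without passing on a signal.

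All 4 ligand genes lie on the plus strand of mouse chromosome 5 (GRCm38, GENCODE annotation). Cxcl5 (ENSMUSG00000029371) runs from 90759360 to 90761624, Cxcl3 (ENSMUSG00000029379) from 90786103 to 90789600, Cxcl1 (ENSMUSG00000029380) from 90891241 to 90893115 and Cxcl2 (ENSMUSG00000058427) from 90903871 to 90905938. Cxcr2 (ENSMUSG00000026180, 74153989 to 74161246) and Il1r2 (ENSMUSG00000026073, 40074079 to 40125231) lie on the plus strand of chromosome 1. Csf3r (ENSMUSG00000028859) occupies 126024550 to 126044440 on the plus strand of chromosome 4, and Il1b (ENSMUSG00000027398) 129364570 to 129371139 on the minus strand of chromosome 2.

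Because Cxcl1, Cxcl2 and Cxcl3 were high in overlapping sets of cells, the 120 bases before their earliest annotated starts are shown, from RefSeq promoters on GRCm38.p6. They read 5′ to 3′ on the plus strand, at chr5:90891121-90891240, chr5:90903751-90903870 and chr5:90785981-90786100. Capitals mark GGGAATTTCC, a sequence of the type that NF-kappa B binds.
Cxcl1: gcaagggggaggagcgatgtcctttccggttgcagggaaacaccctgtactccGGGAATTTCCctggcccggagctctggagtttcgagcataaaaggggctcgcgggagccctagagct
Cxcl2: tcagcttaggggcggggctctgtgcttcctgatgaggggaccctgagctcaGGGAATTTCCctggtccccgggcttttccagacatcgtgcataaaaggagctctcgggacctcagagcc
Cxcl3: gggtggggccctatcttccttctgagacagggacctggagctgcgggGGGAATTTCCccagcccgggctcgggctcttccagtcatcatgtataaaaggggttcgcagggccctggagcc

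The motif begins 71, 97 and 73 bases before the RefSeq start in Cxcl1, Cxcl2 and Cxcl3. Searched on both strands, GGGAATTTCC occurred in 28 of 32851 promoter windows of 250 bases (0.0852%). The looser form GGGNNTTTCC, which includes it, occurred in 464 windows (1.41%), and Cxcl1 and Cxcl2 each held 1 further match of it. The windows of Cxcr2, Csf3r, Il1b and Il1r2 held no match of either form. A sequence was matched for 7 of the 8 genes, all but Cxcl5. These matches describe letters only, and no binding was measured.

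The tumour library held 12427 cells and the node library 11617, with 173317475 and 122207852 UMIs (unique molecular identifiers, 1 per captured transcript). Medians per cell were 9161 and 2630 UMIs, and 47 cell barcodes occurred in both libraries. After limits on detected genes, mitochondrial UMIs and predicted doublets, 8756 tumour cells and 9689 node cells were kept. They were clustered here and named from marker genes, since no annotation of cells was used. The tumour gave 6126 cancer cells, 633 macrophages, 447 monocytes, 311 neutrophils, 115 fibroblasts, 70 dendritic cells, 57 pericytes and 36 endothelial cells, among others. The node gave 4593 B cells, 623 cancer cells, 200 dendritic cells and 39 neutrophils, and its endothelial cells were split into 65 HEC-like cells and 127 others. Of the others, 11 cells form a subcluster led by T-cell and leukocyte genes such as Trbc2 and Ptprc. Without them the folds of HEC-like over other endothelial cells would be 12.8 rather than 12.9 for Cxcl1 and 19.1 rather than 19.8 for Cxcl2. HEC-like cells are those led by genes of high endothelial cells, the tall endothelium through which lymphocytes enter nodes: Glycam1, Chst4 and Fut7. Clusters that raised markers of several classes, were led by markers of another class, or were shallow or small with no marker of their own in the lead stay unnamed, namely 342 tumour cells and 118 node cells.

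Levels are given in CPM: the UMIs of a gene summed over the cells of a class in a library, scaled to 1000000 UMIs of those cells. Brackets hold exact 95% intervals, Poisson for CPM and Clopper-Pearson for shares, which cover counting error only. With 1 library per group there is no replicate, so no test was run and no difference below is set against the spread between mice. Levels were compared only for classes of at least 20 cells.

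**Figure D1:**
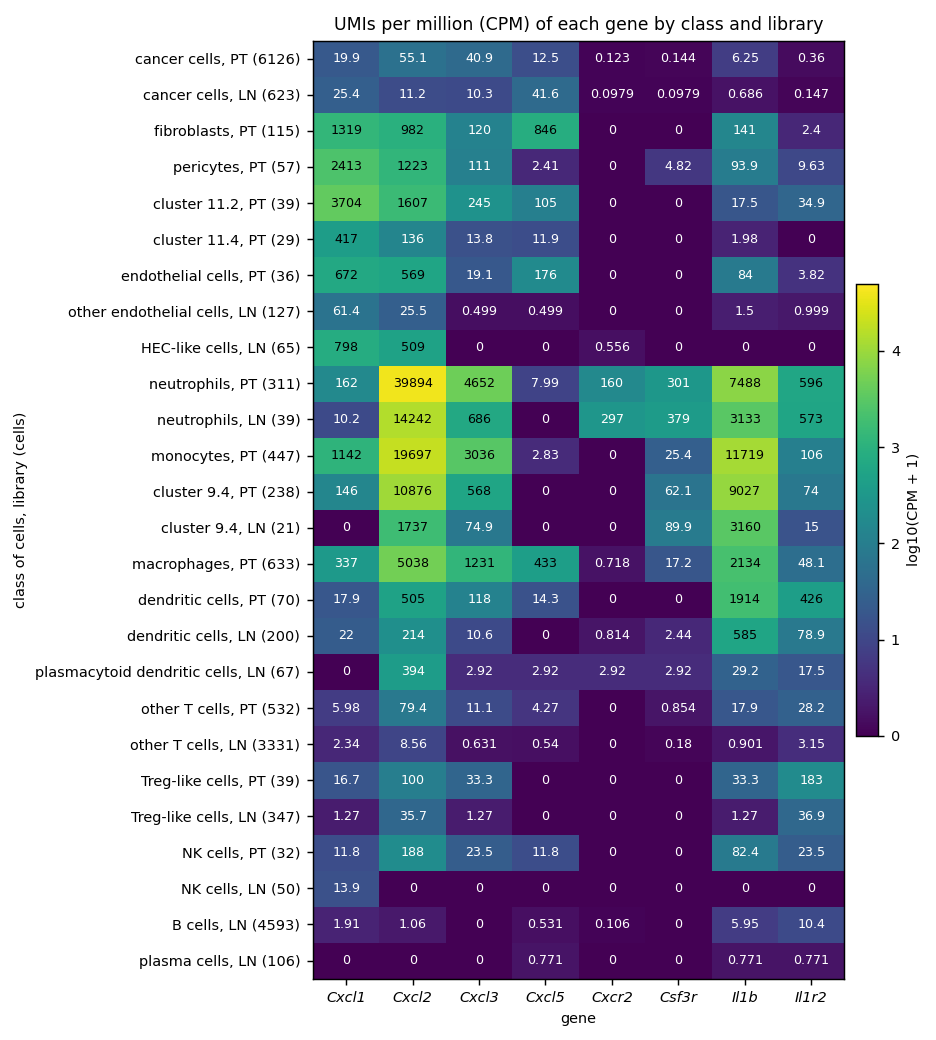
Heat map of the level of each of the 8 genes (columns) in each cell class of the primary tumour and lymph node libraries, in CPM on a logarithmic colour scale. Cxcl2 and Il1b are high in tumour neutrophils and monocytes (39894 and 11719 CPM at most), Cxcl1 in pericytes (2413 CPM), and Cxcr2 in neutrophils of the tumour and the node (160 and 297 CPM).

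Cxcl1 levels were highest in stromal, endothelial and monocytic cells. Among named classes it was highest in tumour pericytes, the contractile cells around small vessels, with 1002 UMIs and 2413 CPM (2266 to 2567). The middle pericyte held 9 Cxcl1 UMIs and the highest 194, and the 5 cells with most held 41.1% of the total. Tumour fibroblasts had 1319 CPM (1242 to 1399) and tumour monocytes 1142 CPM (1079 to 1208). Tumour macrophages had 337 CPM and tumour neutrophils 162 CPM. An unnamed tumour cluster of 39 cells led by Apod, Dpt, Ptx3 and Tnfaip6, genes of connective tissue cells, was higher still at 3704 CPM (3359 to 4073). A further unnamed tumour cluster of 29 cells, led by the pericyte marker Higd1b, was lower than the 672 CPM of tumour endothelial cells. Neutrophils thus stood low in Cxcl1, and in the node they held 1 UMI (10.2 CPM).

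In the lymph node, Cxcl1 was higher in HEC-like cells than in the other classes, and the size of the difference varied with the processing. These 65 cells held 1435 of the 2182 kept Cxcl1 UMIs of the node, 65.8% (63.7 to 67.8). With no upper limit on detected genes, HEC-like cells held 2508 of 6075 UMIs, 41.3% (40.0 to 42.5), the other endothelial cells 1896 and cancer cells 1528, and with doublets kept the share was 28.6%. Their level was 798 CPM, against 61.4 CPM (51.0 to 73.3) in the other endothelial cells of the node, a 12.9-fold difference. The fold was 5.51 with no upper gene limit (670 against 122 CPM), 7.07 with a 10% mitochondrial limit, 8.42 with each library clustered alone and 4.04 with doublets kept. The signal was spread over many of them: the middle cell held 11 UMIs, 35 cells held at least 10, and the highest held 108. Cxcl1 was seen in 78.5% of HEC-like cells and 28.3% of the other endothelial cells. HEC-like cells were deeper, with a median of 29501 UMIs against 9668, so these shares are not matched for depth. With each cell thinned to 1000 UMIs, Cxcl1 was seen in 41.4% of HEC-like cells. T cells of the node, which should lack Cxcl1, showed it in 0.57% of cells (0.209% thinned) at a median of 2974 UMIs. The 2 groups of HEC-like cells found by clustering them again had 1076 CPM (23 cells) and 611 CPM (42 cells). The group of 23 cells has Cxcl1 itself among its leading genes. Tumour endothelial cells had 672 CPM, but 5 of the 36 cells held 85.8% of their UMIs, and without the highest cell the level was 330 CPM. A panel of 12 genes known to respond to tissue dissociation summed to 4438 CPM in HEC-like cells and 1371 CPM in the other endothelial cells of the node. Most of that difference was Jun (2666 against 607 CPM) and Atf3 (755 against 91.9 CPM), while Fos was 35.6 against 30.0 CPM and Fosb, Hspa1a, Hspa1b and Dnajb1 were lower in HEC-like cells. The part of that response in the Cxcl1 level was not tested.

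Cxcl2 followed myeloid cells. It reached 39894 CPM (39257 to 40538) in tumour neutrophils, from 14982 UMIs, and 19697 CPM (19431 to 19966) in tumour monocytes, from 20899 UMIs. Neutrophils of the node had 14242 CPM (13504 to 15011), from 1391 UMIs, of which 589 came from 1 cell. Without that cell their level was 8396 CPM. Tumour macrophages followed with 5038 CPM. An unnamed cluster led by Spic, Treml4 and Ace, genes known from monocytes and macrophages, had 10876 CPM in its 238 tumour cells and 1737 CPM in its 21 node cells.

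Vessel-associated and connective tissue cells also held Cxcl2, at lower levels and in fewer cells. Pericytes had 1223 CPM, with 74.2% of the UMIs in 5 cells, fibroblasts 982 CPM and tumour endothelial cells 569 CPM, with 87.9% of the UMIs in 5 cells and 371 CPM without the highest. HEC-like cells had 509 CPM (477 to 543), from 915 UMIs, against 25.5 CPM in the other endothelial cells of the node (3.59 CPM without their highest cell), a 19.8-fold difference. That fold was 6.47 with no upper gene limit (277 against 42.7 CPM) and 4.54 to 4.76 with doublets kept, a 10% mitochondrial limit or separate clustering. There 57.5% of the UMIs came from 5 cells and the middle cell held 1, so Cxcl2 was less evenly spread than Cxcl1. Plasmacytoid dendritic cells of the node are listed at 394 CPM, but 134 of their 135 UMIs came from 1 cell, and without it the level was 3.2 CPM.

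Cxcl3 too was highest in neutrophils, monocytes and macrophages. Tumour neutrophils had 4652 CPM (4436 to 4875), tumour monocytes 3036 CPM, tumour macrophages 1231 CPM and node neutrophils 686 CPM (532 to 871). It differed from Cxcl1 in the stroma and vessels: pericytes had 111 CPM, fibroblasts 120 CPM, and HEC-like cells held no UMI. Cxcl2 and Cxcl3 transcripts share 161 runs of 31 bases, while no other pair of the 4 ligands shares any. In the Cxcl2 transcript of 1109 bases and the Cxcl3 transcript of 1016 bases the shared stretch lies at least 850 bases from the 3′ end, where these libraries read, but in a short Cxcl2 transcript it lies 97 to 337 bases from the end.

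**Figure D2:**
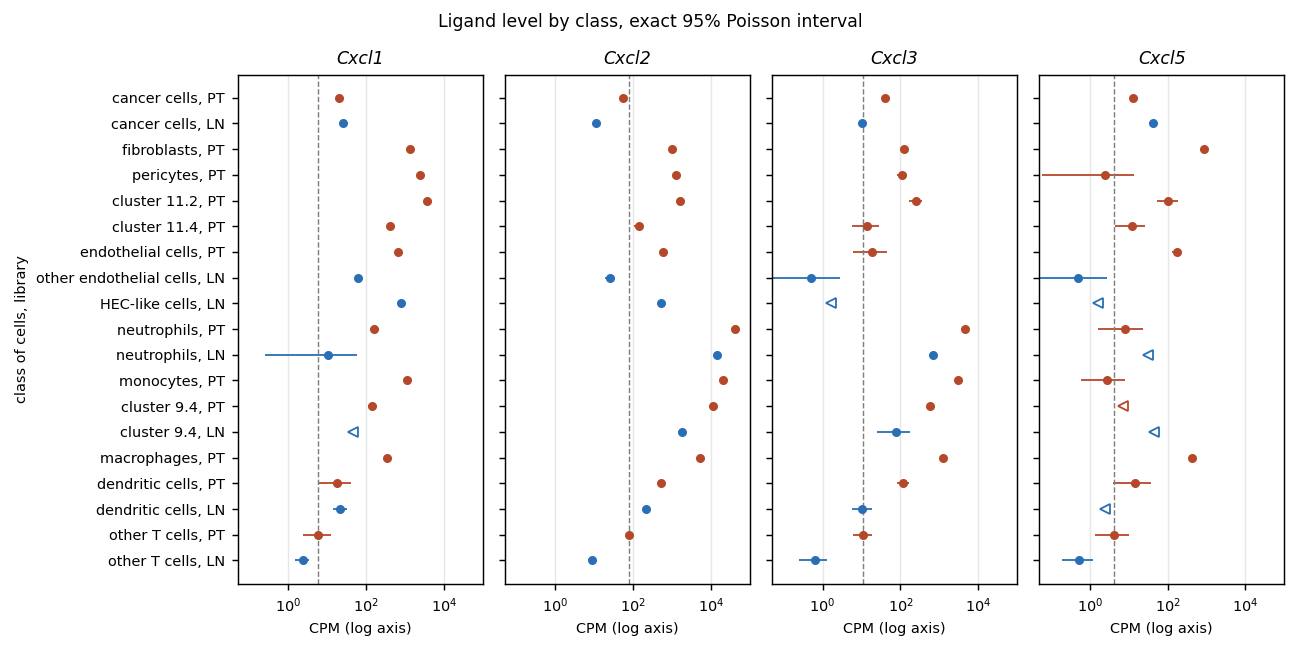
Levels of Cxcl1, Cxcl2, Cxcl3 and Cxcl5 by class, in CPM on a logarithmic axis with exact 95% Poisson intervals, red for the primary tumour and blue for the lymph node. Open triangles mark the limit of 3 counts where no UMI was found, and the dashed line marks tumour T cells other than Treg-like cells. Among named classes Cxcl1 is highest in pericytes and Cxcl2 in tumour neutrophils, and tumour cancer cells lie below the line for Cxcl2 (55.1 against 79.4 CPM).

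Cxcl5 levels were highest in small subsets of cells. Tumour macrophages held 1205 UMIs (433 CPM), and 1199 of them lay in 1 cluster of 235 cells led by Mmp12, Gpnmb and Lpl, with Cxcl5 itself among its 10 leading genes. That cluster had 1025 CPM, against 4.73 CPM in the cluster of 306 macrophages led by complement C1q genes and Mrc1, and no UMI in the third macrophage cluster of 92 cells, which allows up to 8.61 CPM. The same Mmp12 cluster was lower than the C1q cluster in Cxcl1 (77.8 against 546 CPM), Cxcl2 (2795 against 6576 CPM) and Il1b (877 against 2203 CPM), and higher in Cxcl3 (2209 against 535 CPM). Tumour macrophages therefore did not carry the ligands as 1 block. Fibroblasts showed a like split. Of their 706 Cxcl5 UMIs (846 CPM), 691 lay in a cluster of 28 cells at 2023 CPM, led by Cxcl5 itself with Acta2, and 15 in the cluster of 87 cells at 30.5 CPM. In all, 5 fibroblasts held 79.5% of the UMIs, and Cxcl5 was seen in 15.7% of fibroblasts (9.89% thinned) at a median of 5823 UMIs, against 0.752% (0.229% thinned) of T cells. The 176 CPM of tumour endothelial cells came from 46 UMIs of 1 cell.

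Monocytes too differed by cluster. The 355 cells of the larger cluster, whose leading genes include Il1b, Cxcl2 and Cxcl3, had 1412 CPM of Cxcl1, 22099 CPM of Cxcl2 and 3438 CPM of Cxcl3. The 92 cells of the other cluster, led by Chil3 and Vcan and with Il1b among its leading genes, had 320 CPM, 12376 CPM and 1808 CPM. Il1b was nearer in the 2 clusters, at 12236 and 10144 CPM. Clusters were found without these 8 genes among the variable genes, and the clusters are still defined by expression, so the values are a description.

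Cancer cells, though many, held low levels of the ligands. Free RNA in droplets gives some UMIs of any abundant transcript to every cell, so each level is set beside T cells other than Treg-like cells of the same library. In the tumour, cancer cells had 19.9 CPM of Cxcl1 against 5.98 CPM in T cells, 40.9 against 11.1 CPM of Cxcl3, and 12.5 against 4.27 CPM of Cxcl5. For Cxcl2 they had 55.1 CPM (53.6 to 56.6) against 79.4 CPM (64.1 to 97.3), and for Il1b 6.25 against 17.9 CPM. Pooled tumour T cells were thus as high as cancer cells or higher in Cxcl2 and Il1b, and neither level in cancer cells is read as expression here, while Cxcl1, Cxcl3 and Cxcl5 were above the T-cell level. Counted by cells the order was the other way. Unthinned, Cxcl2 was seen in 1880 of 6126 cancer cells and 32 of 532 T cells, and Il1b in 357 and 11. Depth was not matched in these counts, and which measure follows free RNA better was not tested. The T cells themselves differed in Cxcl2, with 109 CPM in the subcluster led by Ccl4 and Ccl3 and 41.4 CPM (24.5 to 65.5) in the one led by Gzmb and Prf1, so the reference is not a uniform background. In the node, cancer cells had 25.4 against 2.34 CPM of Cxcl1, 10.3 against 0.631 CPM of Cxcl3 and 41.6 against 0.54 CPM of Cxcl5. Il1b was 0.686 (14 UMIs) against 0.901 CPM, or 0.367 CPM (4 UMIs) without a T subcluster of 29 cells led by Cd74 and other B-cell genes. Cxcl2 was 11.2 against 8.56 CPM, but 78 of the 95 T-cell UMIs lay in a subcluster of 96 cells with Trdc, a gamma delta T-cell receptor gene, among its leading genes, and without it the T-cell level was 1.58 CPM (0.918 to 2.52). That subcluster was left out after its Cxcl2 UMIs were seen, so nothing is read from the lower reference. Against all T cells other than Treg-like cells, node cancer cells were 1.30-fold higher, a log2 ratio of 0.38 (0.03 to 0.74). With each cell thinned to 1000 UMIs, Cxcl1 was seen in 1.92% of tumour cancer cells and 0.57% of T cells, and unthinned in 17.3% and 1.3%, at median depths of 14057.5 and 1602.5 UMIs.

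Because cancer cells were many and deep, they still held a large part of the UMIs of Cxcl1, Cxcl3 and Cxcl5. In the tumour they held 27.0% of the kept Cxcl1 UMIs, 30.9% of Cxcl3 and 37.9% of Cxcl5, and in the node 23.8%, 57.7% and 98.4%. Their part was small for Cxcl2, with 5356 of 62094 UMIs in the tumour and 228 of 3867 in the node. The same held for Il1b, with 608 of 26441 and 14 of 1499. Monocytes held 33.7% of tumour Cxcl2 and 47.0% of tumour Il1b. Tumour neutrophils, 311 shallow cells, held 24.1% of tumour Cxcl2.

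**Figure D3:**
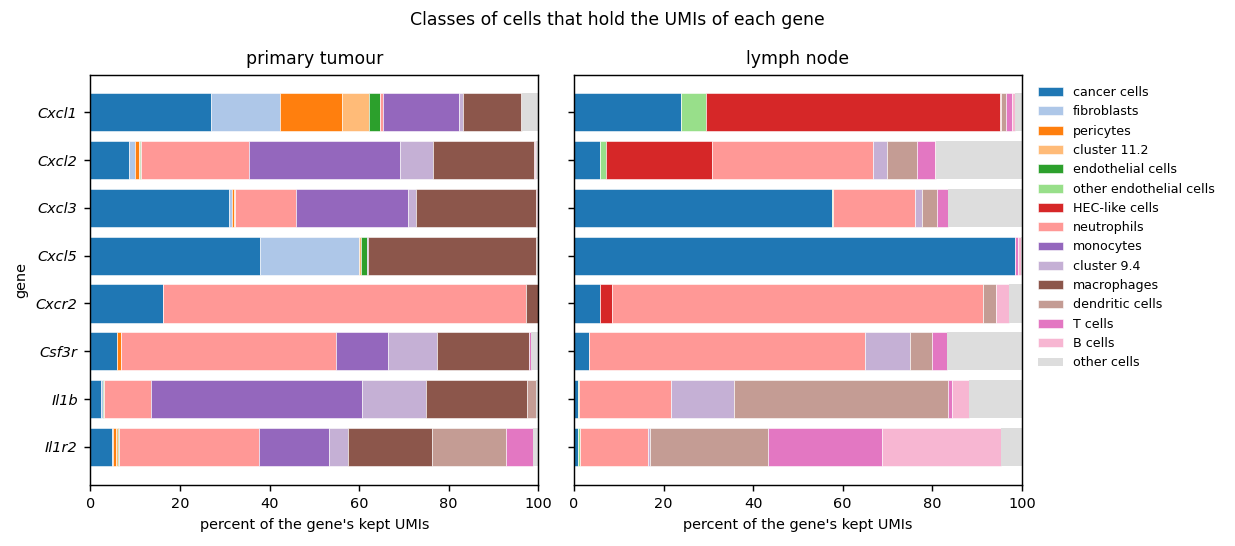
Percent of the kept UMIs of each gene that came from each cell class, stacked to 100 for the primary tumour and the lymph node. Other cells include classes under 20 cells. Of the kept node cells, HEC-like cells hold 65.8% of Cxcl1 (41.3% with no upper gene limit), node Cxcl5 is mostly cancer cells (98.4%), and Cxcr2 mostly neutrophils in both libraries (81.1% and 82.9%).

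Cxcr2, the receptor of these ligands, was a neutrophil transcript in both tissues. Tumour neutrophils had 60 UMIs and 160 CPM (122 to 206), and node neutrophils 29 UMIs and 297 CPM (199 to 426). In every other class of at least 20 cells the level was at most 2.92 CPM, and no UMI was found in T cells other than Treg-like cells. Neutrophils held 81.1% of the kept Cxcr2 UMIs of the tumour and 82.9% of those of the node. A Cxcr2 UMI was seen in 15.4% of tumour neutrophils and 46.2% of node neutrophils, at median depths of 730 and 1985 UMIs. Thinned to 1000 UMIs, which left out 247 of the 311 tumour cells and 6 of the 39 node cells, the shares were 7.09% (2.18 to 16.4) and 30.8% (16.0 to 49.2). The intervals of the thinned shares overlap only slightly, and they rest on few cells.

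Csf3r was also highest in neutrophils, with less restriction. Node neutrophils had 37 UMIs and 379 CPM (267 to 522), and tumour neutrophils 113 UMIs and 301 CPM (248 to 362). These neighbours in the order did not differ beyond their counting intervals. The unnamed Spic and Ace cluster had 89.9 CPM in the node and 62.1 CPM in the tumour, monocytes 25.4 CPM and macrophages 17.2 CPM. Tumour T cells had 0.854 CPM, from 1 UMI. Csf3r was seen in 28.3% of tumour neutrophils and 53.8% of node neutrophils, and thinned in 20.1% and 36.5%. T cells other than Treg-like cells showed it in 0.188% of tumour and 0.06% of node cells, at median depths of 1602.5 and 2974 UMIs.

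Ligand and receptor transcripts occurred in the same neutrophils. Of the 48 tumour neutrophils with a Cxcr2 UMI, 45 also held Cxcl2, as did 299 of all 311. In the node it was 17 of 18, and 33 of all 39. In the tumour, Cxcl2 was 16563 CPM in cells with a Cxcr2 UMI and 49453 CPM in those without, Il1b 3637 and 9066 CPM, and Cxcl3 2556 and 5511 CPM. A UMI is seen more often in deeper cells, and mean depths were 2274 and 1013 UMIs. Counted per cell, Cxcl2 was 37.7 and 50.1 UMIs, Il1b 8.27 and 9.18 and Cxcl3 5.81 and 5.58, so no difference is read from this split. Both Cxcr2 and Csf3r were seen in 19 tumour and 14 node neutrophils, out of 88 and 21 with Csf3r.

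**Figure D4:**
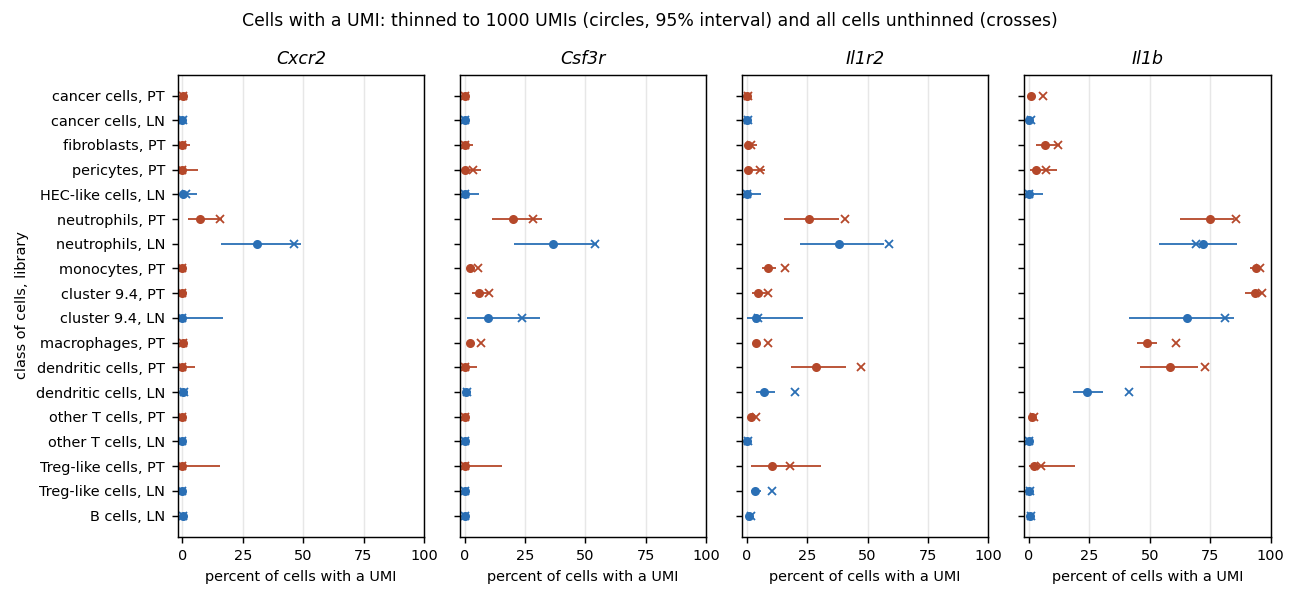
Percent of cells with at least 1 UMI of Cxcr2, Csf3r, Il1r2 and Il1b by class and library. Circles give shares with each cell thinned to 1000 UMIs, with 95% intervals, and crosses the unthinned shares. Cxcr2 is seen in 30.8% of node and 7.09% of tumour neutrophils after thinning and is near 0 elsewhere.

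Il1b, the cytokine, was a transcript of monocytes first. Tumour monocytes had 11719 CPM (11514 to 11927), from 12434 UMIs, and 94.1% of them showed it after thinning (95.7% before), against 1.35% of tumour T cells (2.07% before), at median depths of 2083 and 1602.5 UMIs. The Spic and Ace cluster had 9027 CPM in the tumour and 3160 CPM in the node. Tumour neutrophils had 7488 CPM (7213 to 7770) and node neutrophils 3133 CPM (2792 to 3505). Macrophages had 2134 CPM, and ranged from 877 to 6102 CPM between their clusters. Dendritic cells had 1914 CPM in the tumour and 585 CPM in the node, and held 48.0% of the kept Il1b UMIs of the node. In tumour monocytes, 406 cells held both Il1b and Cxcl2, out of 428 with Il1b and 420 with Cxcl2. Tumour T cells were at 17.9 CPM (11.1 to 27.4).

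Il1r2, the decoy receptor, was highest in neutrophils and tumour dendritic cells. Tumour neutrophils had 596 CPM (521 to 680) and node neutrophils 573 CPM (433 to 745), which did not differ beyond their intervals. Tumour dendritic cells had 426 CPM (353 to 510), which did not differ from node neutrophils beyond the intervals, while tumour monocytes had 106 CPM (86.9 to 127) and node dendritic cells 78.9 CPM. Of the 33 tumour dendritic cells with an Il1r2 UMI, 28 also held Il1b, as did 51 of all 70. In the node it was 30 of 40, and 83 of all 200. Cells with a UMI of a gene tend to be deeper, and depth was not matched in these counts. Treg-like cells, T cells led by Foxp3, the transcription factor of regulatory T cells, had 183 CPM in the tumour (91.5 to 328, from 11 UMIs) and 36.9 CPM in the node (28.0 to 47.8, from 58 UMIs). The other T cells had 28.2 and 3.15 CPM, so the level was 6.70-fold and 11.6-fold higher in Treg-like cells of the respective library. Of the 35 Il1r2 UMIs of the other node T cells, 16 lay in the subcluster of 29 cells led by B-cell genes, and without it their level was 1.74 CPM and the fold 20.8.

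The node and tumour were then compared within each class that had at least 20 cells in both, as the log2 ratio of node over tumour CPM. A gene was called when it was past 2-fold, with only genes counted that reached 100 UMIs in the node or in the tumour. Some genes reached that number only in the library where they were high, as Il1b did in cancer cells and Cxcl2 in endothelial cells, so counts of members called are a description.

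In cancer cells, 14.0% of 10743 genes were called and the median ratio was -0.19. Of the 5 member genes with enough UMIs, Cxcl5 was higher in the node (1.73, interval 1.60 to 1.86), as 41.6 against 12.5 CPM. Cxcl1 was only slightly higher (0.35, 0.21 to 0.49). Cxcl3 (-1.98, -2.19 to -1.78), Cxcl2 (-2.30, -2.50 to -2.11) and Il1b (-3.14, -4.07 to -2.43) were lower. So 4 of 5 members were past 2-fold, with a median of -1.98. Without Cxcl2 and Il1b, which are not read as expression in tumour cancer cells, it was 2 of 3, with a median of 0.35. The node sum of Il1b was 14 UMIs, and its ratio was -4.45 without the cell with most UMIs and -1.70 with no upper gene limit. T cells other than Treg-like cells were also lower in the node, with Cxcl2 at 79.4 CPM in the tumour and 8.56 CPM in the node (1.58 CPM without the Trdc subcluster), and Il1b at 17.9 and 0.901 CPM. Cxcl5 in T cells was 4.27 CPM in the tumour, from 5 UMIs, and 0.54 CPM in the node, from 6 UMIs. The part of free RNA in the ratios of cancer cells was not tested. Most node cancer cells (512 of 623) lay in 1 cluster led by Tff2 and Krt19, which held 44.3 CPM of Cxcl5, and most tumour cancer cells in 3 other clusters. Over the cancer cell clusters of the tumour, Cxcl5 ranged from 2.3 to 24.5 CPM. The dissociation panel summed to 3501 CPM in tumour and 1444 CPM in node cancer cells, with 6 of its 12 genes lower and 1 higher past 2-fold. Its part in these ratios was not tested.

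In neutrophils, 41.1% of 547 genes were called, with a median of -0.46. Cxcl3 (-2.75, -3.14 to -2.41), Cxcl2 (-1.49, -1.57 to -1.41) and Il1b (-1.25, -1.43 to -1.09) were lower in the node, while Csf3r (0.35, -0.24 to 0.88) and Il1r2 (-0.05, -0.51 to 0.37) had intervals that include 0. So 3 of the 5 members that passed were past 2-fold and lower. Cxcl3, Csf3r and Il1r2 (67, 37 and 56 UMIs in the node) passed the 100 UMIs only through the tumour, where the class held more UMIs. The count of directions is therefore partly set by that limit. Without the 1 node neutrophil that held 589 Cxcl2 UMIs, the node level of Cxcl2 would be 8396 rather than 14242 CPM, still below the tumour. Cxcr2 was under 100 UMIs, at 0.91 (0.20 to 1.56). The 8 neutrophil markers summed to 51540 CPM in the tumour and 183921 CPM in the node, and the cancer cell markers reached 2125 CPM in tumour neutrophils, with 8 of 9 detected. The dissociation panel summed to 11013 CPM in the tumour and 5119 CPM in the node. The parts of both in the ratios were not tested.

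In dendritic cells, 11.5% of 1633 genes were called, with a median of 0.03. The 3 members with enough UMIs were all lower in the node: Cxcl2 (-1.24, -1.54 to -0.93), Il1b (-1.71, -1.87 to -1.55) and Il1r2 (-2.43, -2.83 to -2.03). Il1r2 passed the 100 UMIs only through the tumour (97 UMIs in the node, 119 in the tumour), so the count of directions is partly set by that limit. The dendritic cell markers summed to 6266 CPM in the tumour and 2125 CPM in the node, and the dissociation panel to 2974 and 4151 CPM. Whether the class held the same kinds of dendritic cells in both libraries was not tested.

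In endothelial cells without HEC-like cells, 45.6% of 2802 genes were called, with a median of 0.43. Cxcl1 (-3.45, -3.80 to -3.11) and Cxcl2 (-4.47, -4.97 to -4.01) were both lower in the node, with tumour levels of 330 and 371 CPM without the highest cell of each, and a node level of Cxcl2 of 3.59 CPM without its highest cell. Most tumour endothelial cells (34 of 36) and the node endothelial cells (191) lay in different clusters. The dissociation panel summed to 7532 CPM in the tumour and 1371 CPM in the node, and 11 of its 12 genes were lower past 2-fold. Its part was not tested. In Treg-like cells, 27.3% of 2289 genes were called, and no member reached 100 UMIs. Il1r2 there had a ratio of -2.36 (-3.26 to -1.23).

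**Figure D5:**
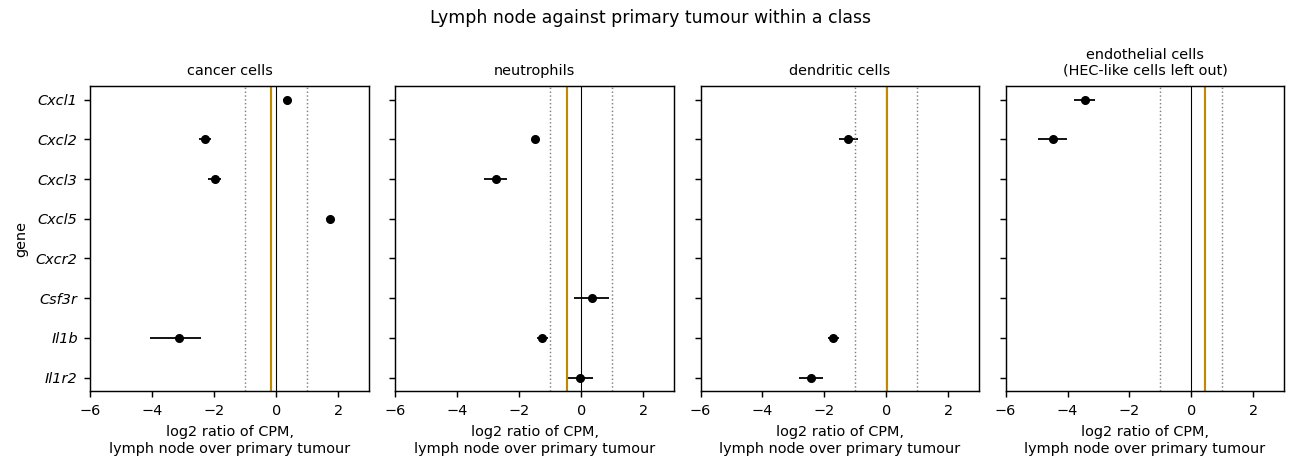
Log2 ratio of lymph node over primary tumour CPM for member genes with at least 100 UMIs, in cancer cells, neutrophils, dendritic cells and endothelial cells without HEC-like cells. Bars are exact 95% counting intervals, dotted lines mark 2-fold, and the gold line marks the median of all tested genes of the class. Cxcl5 in cancer cells (1.73) is the member past 2-fold to the higher side.

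Other genes of these pathways, from a list of 22, were described in the same way. Among other CXC ligands, Ppbp, a neutrophil chemokine best known from platelets, was highest in node cancer cells at 150 CPM (3072 UMIs), against 21.9 CPM in tumour cancer cells and 95.1 CPM in tumour macrophages. Pf4, another platelet chemokine, was highest in tumour macrophages at 4526 CPM. Cxcl12, the CXCR4 ligand, reached 830 CPM in the Apod and Dpt cluster and 260 CPM in the other endothelial cells of the node. Cxcr1, the second receptor for such ligands, gave only 2 UMIs in tumour and 1 in node neutrophils. Csf3, the ligand of CSF3R, was highest in the Apod and Dpt cluster at 288 CPM (33 UMIs), then tumour endothelial cells at 111 CPM, monocytes and neutrophils of the tumour at 77.3 and 77.2 CPM, and macrophages at 54.2 CPM (151 UMIs).

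Among interleukin 1 pathway genes, several were highest in the myeloid cells that held Il1b. Il1rn, the receptor antagonist, was highest in tumour neutrophils at 3062 CPM, and Nlrp3, the inflammasome sensor, in the same cells at 1723 CPM. Il1a was highest in tumour monocytes at 809 CPM. Il1r1, the signalling receptor, was instead in stromal cells, at 218 CPM (25 UMIs) in the Apod and Dpt cluster, 84.3 CPM in pericytes and 68.3 CPM in fibroblasts, the same 3 groups that had the highest Cxcl1 levels. The NF-kappa B inhibitor Nfkbia was highest in monocytes at 2491 CPM, and Nfkbiz in tumour neutrophils at 2021 CPM. Il17a, whose product induces these ligands in stroma, was highest in node T cells other than Treg-like cells at 4.59 CPM (51 UMIs).

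Between node and tumour, 5 of 15 pathway genes tested in cancer cells were past 2-fold (14.0% of all genes), with Ppbp (2.78) and Pycard (1.22) higher and Pf4 (-2.24), Il1rn (-1.61) and Il17ra (-1.13) lower. Tumour T cells were above tumour cancer cells in Pf4 (27.3 against 6.82 CPM) and Il1rn (12.8 against 2.6 CPM), so neither is read as expression there. Pycard in node cancer cells was 2.79 CPM (57 UMIs), against 305 CPM in Treg-like cells and 396 CPM in plasma cells of the node. The part of free RNA in its ratio was not tested. In neutrophils, where 41.1% of all genes were called and 166 of the 225 called were lower, the ratios of the 5 that passed were Il1a -2.95, Il1rn -2.43, Nfkbiz -1.64, Nlrp3 -1.26 and Nfkbia -1.15. All but Nfkbia passed the 100 UMIs only through the tumour, so nothing is read from their shared direction. In dendritic cells (11.5% of all genes) 1 of 3 was past 2-fold, Nfkbiz (-1.04). In endothelial cells (45.6%) both tested genes were, Cxcl12 higher (1.42) and Nfkbia lower (-3.13). In Treg-like cells (27.3%) 3 of 4 were, Pycard higher (2.03, 0.83 to 4.08) and Cxcr4 (-2.81, -3.30 to -2.27) and Nfkbiz (-2.29, -2.90 to -1.57) lower. The 39 tumour cells of that class held 4, 42 and 24 UMIs of these genes. They passed the 100 UMIs only through the node.

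The genes whose levels followed each member most closely were found over the 22 named class and library groups of at least 20 cells, by Pearson's r of log2(CPM + 10). The groups share 2 libraries and differ in depth, so r is a description. For Cxcr2 these were Ngp (0.997), Camp and Ltf, all neutrophil granule genes, and for Csf3r Wfdc21 (0.990), Il1f9 and S100a8. For Cxcl1 they were Itga5 (0.935), Thbd and Mcfd2, for Cxcl2 Ptgs2 (0.913), Emilin2 and Cd14, and for Cxcl3 Olr1 (0.953), Ccl6 and Cd14. For Il1b they were Cd14 (0.965), Il1rn and Nlrp3, for Cxcl5 Mmp3 (0.882), Clmp and Igf1, and for Il1r2 Lilrb4a (0.917), Fas and Ebi3. Among the members, Cxcl2, Cxcl3 and Il1b stood together (0.884 to 0.908) and Cxcr2 stood with Csf3r (0.948), while Cxcl1 was less like Cxcl2 (0.593) and Cxcl5 (0.493). Of the 3 ligands whose printed promoter windows hold the capitalised motif, Cxcl2 and Cxcl3 were both highest in tumour neutrophils and Cxcl1, among named classes, in pericytes.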

How the data were processed

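The authors deposited 1 matrix of raw UMI counts per library, with no normalization. Their processing notes name Cell Ranger 2.1.1 and GRCm38, while the file header names cellranger 5.0.0. Following the study's methods, a cell was kept if it had more than 200 genes, no more than 6000 genes, and 5% or less of its UMIs from mitochondria. Doublets were scored with Scrublet in scanpy 1.11.5. It marked 391 tumour cells (4.27%) by its automatic threshold and 0 node cells, so the 616 node cells (5.98%) in the top 6% of scores were removed instead.

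Both libraries were clustered together without integration (2142 variable genes, 30 components, 15 neighbours, Leiden resolution 1.0, igraph 0.11.9), with cell cycle scores from the Seurat 5.3.0 gene lists regressed out. Member, pathway and dissociation genes were kept out of the variable genes. T and endothelial clusters were clustered again. Classes were named from fixed markers by a rule set after the data were seen, and a name needed at least 3 raised markers and its 10 leading genes could not favour a different class. Names are rebuilt here and may differ from those of the study.

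The members and lists were chosen with earlier results of these data known. Named genes are the 8 members, the pathway and dissociation lists and, for each member, the 3 genes with the highest correlation. In addition, leading genes of clusters are named to identify them. Ratios add 0.5 count to each sum. A sum of 0 is given a limit of 3 counts. Alternatives were no upper gene limit, a 10% mitochondrial limit, doublets kept, separate clustering, resolution 2.0, the mean of single-cell CPM, leaving out the cell with most UMIs, and thinning to 2000 UMIs. Tables were handled with pandas 2.3.3 and anndata 0.12.19 in Python 3.11.15, intervals came from scipy 1.17.1, and numpy 2.4.6, matplotlib 3.10.9 and scikit-learn 1.9.0 were used for the rest.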

Additional observations from a re-analysis of the deposited data

Results flagged for a closer look

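Many UMIs of 3 ligands in the lymph node came from cells that no comparison above uses, the 971 node cells with over 6000 detected genes. They held 63.7% of the deposited Cxcl1 UMIs of the node (3962 of 6224), 54.6% of Cxcl3 (465 of 851) and 59.9% of Cxcl5 (1407 of 2347). Clustered with the gene limit removed, 721 of these cells were named cancer cells, with 1022, 426 and 1311 UMIs of Cxcl1, Cxcl3 and Cxcl5. Another 165 were endothelial cells other than HEC-like cells, with 1301 Cxcl1 UMIs (99.2 CPM), and 35 were HEC-like cells, with 1585 Cxcl1 UMIs (674 CPM). Whether such cells are doublets or large cells was not tested.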

How the results depend on the processing

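No paired analysis was possible because both titles carry only replicate 1 and each group is 1 library. Alternatives were run for the 5 member ratios in cancer cells, none of which changed sign, and not for the ratios of other classes or of pathway genes. The highest level of each member and the HEC-like levels ranged from 0.543 to 1.59 times the reported value. The class with the highest level was kept in 52 of 56 combinations of gene and setting. The exceptions were Cxcl1 (fibroblasts at 1437 CPM with the 10% mitochondrial limit and 1376 CPM with doublets kept, where no pericyte class formed and so no pericyte level exists), Csf3r (tumour neutrophils at 420 CPM with doublets kept) and Cxcl5 (tumour endothelial cells at 602 CPM by mean single-cell CPM, from 1 cell). A class of the same name did not always hold the same number of cells. Tumour monocytes numbered 447, but 75 with no upper gene limit, 103 with doublets kept and 147 with separate clustering. Tumour fibroblasts numbered 115, but 90, 77 and 70 under these settings. Levels, shares and folds of HEC-like cells, and T-cell levels without 1 subcluster, were added after the data were seen. Over the settings the HEC-like share of node Cxcl1 ranged from 28.6% to 65.8%, and the fold over other endothelial cells from 4.04 to 12.9 for Cxcl1 and 4.54 to 19.8 for Cxcl2.

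With no upper gene limit, levels in CPM were 1887 for Cxcl1 in pericytes, 52309 for Cxcl2, 6084 for Cxcl3 and 809 for Il1r2 in tumour neutrophils, 946 for Cxcl5 in fibroblasts, 12209 for Il1b in monocytes, and 670 for Cxcl1 and 277 for Cxcl2 in HEC-like cells. Ratios in cancer cells were -1.96 for Cxcl2, 1.51 for Cxcl5 and -1.70 for Il1b. With the 10% mitochondrial limit, levels in the same classes were 37415 for Cxcl2, 4423 for Cxcl3, 1191 for Cxcl5, 9316 for Il1b, and in HEC-like cells 1115 for Cxcl1 and 601 for Cxcl2. With doublets kept they were 54776 for Cxcl2, 6323 for Cxcl3, 1141 for Cxcl5, 10560 for Il1b and 822 for Il1r2, and in HEC-like cells (20 cells) 1110 for Cxcl1 and 753 for Cxcl2. Ratios in cancer cells were then 0.17 for Cxcl1, -2.99 for Cxcl2, -2.21 for Cxcl3 and -4.40 for Il1b. With separate clustering they were 1868 for Cxcl1, 45303 for Cxcl2, 5296 for Cxcl3, 1107 for Cxcl5, 8795 for Il1b and 691 for Il1r2, and in HEC-like cells 1124 for Cxcl1 and 594 for Cxcl2. Resolution 2.0 moved only Il1b in monocytes, to 12604. By mean single-cell CPM, levels were 2042 for Cxcl1, 56766 for Cxcl2, 6614 for Cxcl3, 465 for Cxcl5, 12003 for Il1b, 948 for Il1r2, 427 for Cxcr2 and 535 for Csf3r in node neutrophils, and in HEC-like cells 865 for Cxcl1 and 460 for Cxcl2. The Cxcl2 ratio in cancer cells was then -1.70. Without the cell with most UMIs, levels were 2108 for Cxcl1, 38974 for Cxcl2 and 667 for Cxcl5, in HEC-like cells 748 for Cxcl1 and 424 for Cxcl2, and the Il1b ratio in cancer cells was -4.45. The cause of these differences was not tested. The other 23 levels and 26 ratios stayed within their counting interval.

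Each tissue is 1 library, pooled from mice that cannot be told apart. Depth limits the receptors: Cxcr2 rests on 60 tumour and 29 node UMIs in neutrophils, and tumour neutrophils had a median of 730 UMIs.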
